A study of Mus musculus with 18 samples.

Results

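Plasmacytoid dendritic cells (PDC) of mouse spleen were compared with conventional dendritic cells (cDC), the population that served as control in the series. The comparison took the samples titled as plasmacytoid (2) and as cDC (2), whose RNA went onto the 3 arrays of the Affymetrix mouse U74 set (A, B and C). These were 12 of the 18 arrays of the series; the other 6 held 2 samples of interferon-producing killer dendritic cells (IKDC), which entered the estimate of the spread. On each array type, every probe set other than a control was tested if 2 or more of the 6 arrays gave it a signal of at least 60. This kept 23285 of 36701 probe sets, which stood for 12193 genes. The labels describe the groups only by population and organ, and name no strain, age, sex, genotype, treatment or sorting gate. The series design calls the 2 samples of a population biological samples that were prepared separately. Because no label ties them to different animals, the p-values measure only the spread between these samples, which may be partly technical.

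Plasmacytoid dendritic cells are known as the main early source of type I interferon after viral infection, which they release when endosomal Toll-like receptors meet nucleic acids. They resemble plasma cells in shape, carry some transcripts of the lymphoid lineages, and depend on the E protein transcription factor encoded by Tcf4. Conventional dendritic cells take up antigen, load it on MHC class II and prime T cells, and their development depends on factors such as Id2, an inhibitor of E proteins, and Batf3.

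A signal is the deposited intensity on a linear scale, scaled on each array to a target of 150. Signals are printed in the order replicate 1, replicate 2. A difference is the mean log2(signal + 16) of PDC minus that of cDC, with its standard error (SE), and understates the change of dim genes. It was called where limma gave a Benjamini-Hochberg adjusted p under 0.05 over all probe sets tested. Where both samples of the dimmer group lay under the floor of the array type (60 on U74A, 122.7 on U74B and 148.7 on U74C), the fold is a bound, written as at least N-fold. Levels of different genes are not compared.

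Markers of PDC were higher in the PDC samples, while those of cDC were split between called and not called. Of 10 PDC markers 8 were on the arrays, and all 8 were called higher in PDC (against 2.25% of all genes). These markers recur in the lists of PDC genes below, so the counts are not independent. The signals of the tested markers summed to 26636 and 24336 in the PDC samples and 1669 and 1493 in the cDC samples. Of 10 cDC markers 9 were on the arrays, of which 5 were called lower in PDC and 0 higher (against 2.75% and 2.25% of all genes). Their sums were 8112 and 9638 in PDC and 16593 and 21272 in cDC, so the groups did not overlap, but the ratio was smaller than for the PDC markers. Cadm1, an adhesion molecule of cross-presenting cDC, accounted for most of the PDC sum, with signals of 6473.0 and 7591.1 in PDC and 3579.1 and 4340.8 in cDC. Both PDC samples lay above both cDC samples, against the label, without a call (log2 difference 0.83, SE 0.26, adjusted p = 0.138 by limma). Cd8a, another cDC marker, had overlapping signals of 409.6 and 544.4 in PDC and 335.3 and 754.3 in cDC. Signals of Ptprc, which encodes the leukocyte antigen CD45, overlapped too, at 771.0 and 1231.8 in PDC and 1177.5 and 2409.3 in cDC. Flt3, the receptor that drives dendritic cell development, stood at 1917.9 and 2219.4 in PDC and 2387.9 and 2705.2 in cDC (log2 difference -0.30, SE 0.26, adjusted p = 0.695).

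Markers of some other cell types differed between the groups as well. The counts called stand beside 2.25% higher and 2.75% lower over all genes. The 8 monocyte and macrophage markers summed to 1350.0 and 1021 in PDC and to 5029 and 6169.5 in cDC, and 6 of them were called lower in PDC, where C1qa and Adgre1 were under the floor. Plasma cell markers, 3 of 4 tested, summed to 7284 and 3116 in PDC and to 341 and 461 in cDC, with 2 called higher in PDC and Prdm1 under the floor in both groups. Erythroid markers, 4 on the arrays, summed to 22622 and 9749 in PDC and to 1045 and 1969 in cDC, with 3 called higher in PDC. Igha accounted for most of the plasma cell sum in PDC and Hba-a1 for most of the erythroid sum, with signals given below. B cell markers (1046 and 441 against 632 and 407, 4 tested) and T cell markers (211 and 107 against 169 and 47.1, 2 tested) overlapped, with 0 called by limma. In PDC, Fcer2a and Cr2 of the B cell markers and Cd3d, Cd6 and Cd5 of the T cell markers were under the floor. NK cell markers summed to 1712 and 1365 in PDC and 838 and 929.8 in cDC, with 1 of 6 called, and neutrophil markers, 5 of 7 tested, summed to 771 and 212 in PDC and 795 and 1656 in cDC. The neutrophil sums did not overlap, though PDC replicate 1 lay close to cDC replicate 1, and 0 of these markers were called by limma. Pancreas markers, 5 tested, summed to 1737 and 1468 in PDC and 856 and 1021 in cDC, with 1 called higher in PDC. The part of these cell types in the results was not tested. The Gapdh control of U74A, whose 3' signal over its 5' signal reflects RNA quality, gave a ratio of 6.0 and 3.19 in PDC and 4.74 and 4.13 in cDC. The PDC samples thus lay on either side of the cDC samples, as on U74B (5.11 and 2.97 against 4.59 and 4.05). On U74C they did not, at 5.45 and 3.77 in PDC and 5.84 and 5.29 in cDC. For the Actb control they lay on either side on U74A only.

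**Figure D1:**
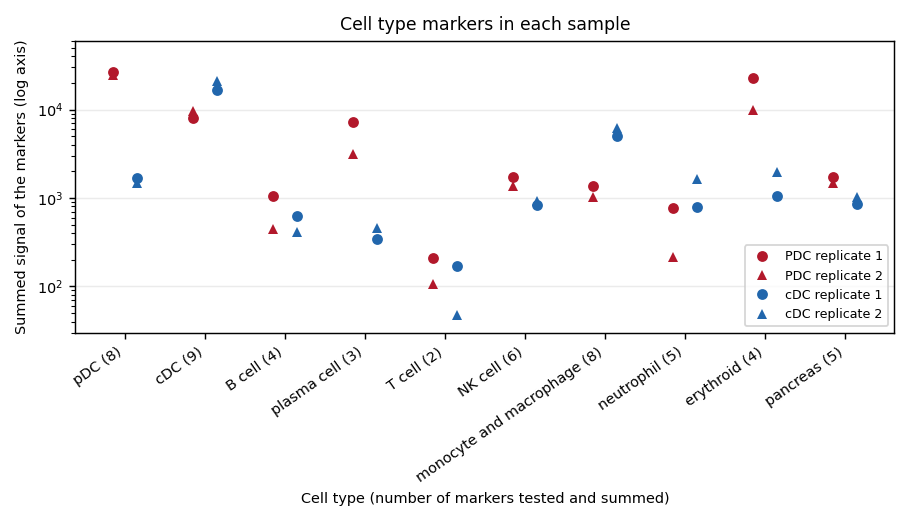
Summed signal of the marker genes of 10 cell types (log axis) in each PDC (red) and cDC (blue) sample, with replicate 1 as circles and replicate 2 as triangles. The PDC markers reached 26636 and 24336 in PDC against 1669 and 1493 in cDC. Only the B cell and T cell sums overlapped between the groups.

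Over all probe sets, 402 (1.73%) were called higher and 447 (1.92%) lower in PDC, 849 of 23285 or 3.65%, and 3472 had an unadjusted p under 0.05. With 1 probe set per gene, 609 of 12193 genes (4.99%) were called, 274 higher (2.25%) and 335 lower (2.75%). The median log2 difference over all genes was 0.00. In 43.6% of all genes both samples of 1 group lay above both of the other, so lack of overlap alone is common here, and 22.0% lay higher and 21.5% lower in PDC. Of the 609 genes, 163 were also called in each of the 4 fits that left out 1 PDC or 1 cDC sample, 94 higher and 69 lower. A call is described as held below where it passed all 4 of these fits. Where it did not, the samples that ended the call are given, in most cases with the adjusted p. Of the 609 genes 240 had further tested probe sets, and 297 of these 361 further probe sets had the same sign. A further probe set was called in the same direction in 59 genes and in the opposite direction in 1, so many calls rest on 1 probe set. In bulk RNA, a smaller number of cells with a transcript and less of it per cell cannot be told apart, which applies to every difference below.

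**Figure D2:**
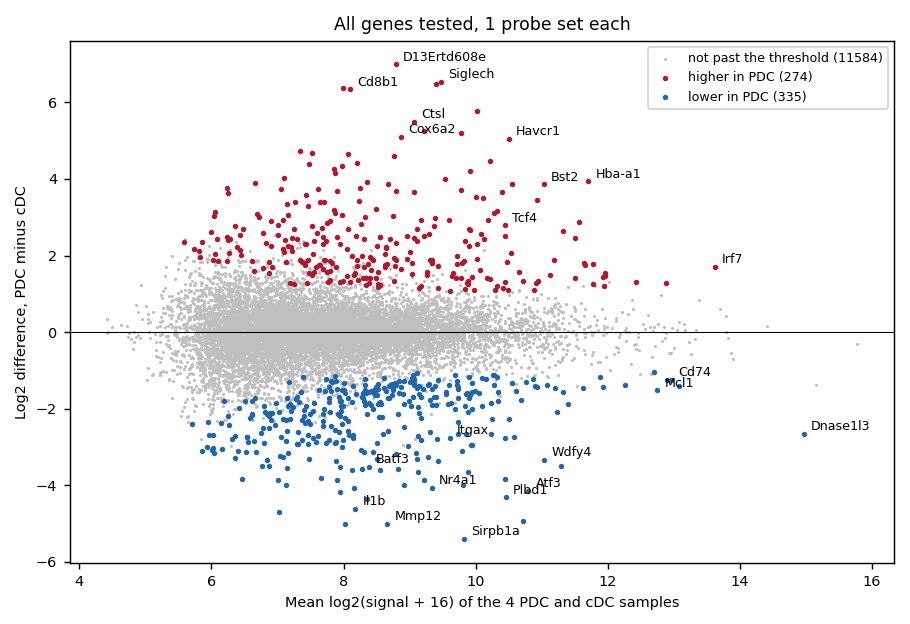
Log2 difference between PDC and cDC against the mean log2(signal + 16) of the 4 samples for all 12193 genes, 1 probe set each. The 274 genes called higher in PDC are red, the 335 called lower are blue, and grey genes did not pass an adjusted p of 0.05.

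Most genes of a list known from PDC were called higher in PDC. Of 27 measured members, 21 were called higher in PDC (77.8%, against 2.25% of all genes), 0 lower, and the median log2 difference of the list was 2.82 against 0.00 for all genes. The list was chosen with results of these data known and is no independent evidence. Between 17 and 20 members passed in the fits that left out 1 sample.

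Siglech, a sialic acid-binding receptor used to identify mouse PDC, had signals of 7189.9 and 6513.5 in PDC and 142.8 and 18.3 in cDC (log2 difference 6.54, SE 0.57, adjusted p = 0.000236 by limma). The promoter windows of 4 called genes are shown to let a reader see where CACCTG lies. It is a form of the E box, the sequence that E proteins bind. These 4 were picked because they hold a match, and the window of Batf3, a gene lower in PDC, is set beside them as one with 0 matches to the motifs searched. Matches to CACCTG on either strand are in capitals. Only CACCTG and CAGCTG were searched, so other E box forms are not marked, such as CACGTG in the Siglech and Batf3 windows. Each window holds the 250 bases before the first listed start in RefSeq (GRCm38.p6), read on the strand of the gene. They are Siglech at chr7:55767934-55768183 (plus strand), Klk1 at chr7:44225110-44225359 (plus strand), Blnk at chr19:40994222-40994471 (minus strand), Bst2 at chr8:71537473-71537722 (minus strand) and Batf3 at chr1:191098164-191098413 (plus strand). In Bst2, an interferon-inducible gene, a match to GAAANNGAAA, a core of interferon response elements, is also in capitals. A further match to GAAANNGAAA overlaps its end and is left partly in lower case.
Siglech: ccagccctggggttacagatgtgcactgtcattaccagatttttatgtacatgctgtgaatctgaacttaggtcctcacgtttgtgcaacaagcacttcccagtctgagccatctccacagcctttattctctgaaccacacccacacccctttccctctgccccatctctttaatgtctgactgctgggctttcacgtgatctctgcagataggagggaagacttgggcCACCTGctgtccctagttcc
Klk1: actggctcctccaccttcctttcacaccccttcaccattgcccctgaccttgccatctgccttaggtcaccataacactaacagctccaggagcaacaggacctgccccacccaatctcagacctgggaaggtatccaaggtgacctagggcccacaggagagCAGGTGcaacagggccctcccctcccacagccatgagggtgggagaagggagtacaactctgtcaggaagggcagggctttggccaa
Blnk: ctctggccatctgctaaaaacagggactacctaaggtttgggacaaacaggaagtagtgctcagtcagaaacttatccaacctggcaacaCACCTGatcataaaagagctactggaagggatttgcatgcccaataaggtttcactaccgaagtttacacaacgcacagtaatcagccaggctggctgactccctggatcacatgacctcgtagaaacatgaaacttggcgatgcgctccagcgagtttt
Bst2: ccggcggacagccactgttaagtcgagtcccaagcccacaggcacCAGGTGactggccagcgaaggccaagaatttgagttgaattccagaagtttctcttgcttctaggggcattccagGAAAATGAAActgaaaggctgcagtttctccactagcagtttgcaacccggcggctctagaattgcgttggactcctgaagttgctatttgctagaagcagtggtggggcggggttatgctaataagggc
Batf3: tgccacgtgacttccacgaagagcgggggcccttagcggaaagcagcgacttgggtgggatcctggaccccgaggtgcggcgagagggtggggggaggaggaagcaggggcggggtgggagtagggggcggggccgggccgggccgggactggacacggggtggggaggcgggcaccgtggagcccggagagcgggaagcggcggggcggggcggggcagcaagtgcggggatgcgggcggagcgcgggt
The CACCTG match lay 20 bases before the start in Siglech, 87 in Klk1, 160 in Blnk and 205 in Bst2, counted from its first base. Windows of this length held CACCTG in 17.1% of 27025 promoters. The share was 21.3% (45 of 211) for genes higher in PDC that had a listed promoter, 15.6% (41 of 262) for genes lower in PDC and 16.6% for all genes tested. The other E box searched, CAGCTG, was in 12.3% of promoters of genes higher in PDC, 14.9% of those lower in PDC and 12.8% of all, and GAAANNGAAA in 3.79%, 4.20% and 3.04%. Both were searched on either strand, and a match that overlaps an earlier match of the same motif was not marked. Of the 15 leading genes higher in PDC 10 had a listed promoter, and CACCTG was in 5: Siglech, Klk1, Klk1b5, Klk1b22 and Havcr1. CAGCTG was in 0 of these 10. Of the 15 leading genes lower in PDC 12 had a listed promoter, and CACCTG was in 1, Plbd1, and CAGCTG in 2. A match is a description of letters, not a bound site, and the kallikrein promoters are copies of related sequence.

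The leading gene by size was D13Ertd608e, with signals of 4730.1 and 5222.4 in PDC and 39.3 and 11.8 in cDC, at least 82.8-fold higher (log2 difference 6.99, SE 0.35, adjusted p = 1.80e-06). Members of the tissue kallikrein family, serine proteases best known from salivary gland and kidney, made up 5 of the 15 leading genes. Klk1 stood at 5663.7 and 7150.2 in PDC and 50.7 and 60.8 in cDC (log2 difference 6.48, SE 0.29, adjusted p = 1.14e-06). Klk1b5, Klk1b21, Klk1b22 and Klk1b1 had log2 differences of 6.38, 5.78, 5.24 and 5.21. Both PDC signals lay far above both cDC signals in each of the 5. The family has near-identical copies that the probe sets may not tell apart, so how many of its genes differ is uncertain. Klk1b24, a further member, had signals of 60.1 and 65.5 in PDC and 58.9 and 37.6 in cDC (log2 difference 0.31, SE 0.73, adjusted p = 0.912).

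Cd8b1, the beta chain of the CD8 co-receptor, had signals of 2244.5 and 2685.6 in PDC and 26.1 and 6.1 in cDC, at least 40.9-fold higher (log2 difference 6.34, SE 0.35, adjusted p = 2.76e-06). Its partner Cd8a, given above, overlapped between the groups (log2 difference -0.09, SE 0.38). Thus only the beta chain of the pair was called.

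Ctsl, a lysosomal cysteine protease, stood at 3106.5 and 4107.1 in PDC and 79.5 and 51.0 in cDC (log2 difference 5.49, SE 0.31, adjusted p = 3.08e-06). Cox6a2, the heart and muscle form of a cytochrome c oxidase subunit, gave 3106.7 and 2396.7 in PDC and 53.3 and 75.9 in cDC (log2 difference 5.10, SE 0.29). Cox6a1, the form found in most tissues, gave 2172.0 and 2025.5 in PDC and 1507.3 and 1268.9 in cDC, which was not called (log2 difference 0.60, SE 0.26, adjusted p = 0.308). Among 53 measured genes of oxidative phosphorylation Cox6a2 was the only one called (1.89% against 4.99% of all genes), and their median log2 difference was 0.02.

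Havcr1, which encodes the phosphatidylserine receptor TIM-1, had signals of 6574.6 and 10492.1 in PDC and 292.3 and 192.3 in cDC (log2 difference 5.04, SE 0.33, adjusted p = 2.26e-05). Mzb1, an endoplasmic reticulum chaperone of antibody-secreting cells, gave 1216.9 and 1457.7 in PDC and 24.9 and 54.2 in cDC, at least 10.9-fold higher. Chdh, choline dehydrogenase, and Dusp9, a MAP kinase phosphatase, were at least 6.68-fold and 7.41-fold higher. Dusp9 had 6 further probe sets, of which 2 were called in the same direction and the other 4 spanned log2 differences from -2.17 to 2.04. All 15 leading genes held, as the rule that chose them requires.

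**Figure D3:**
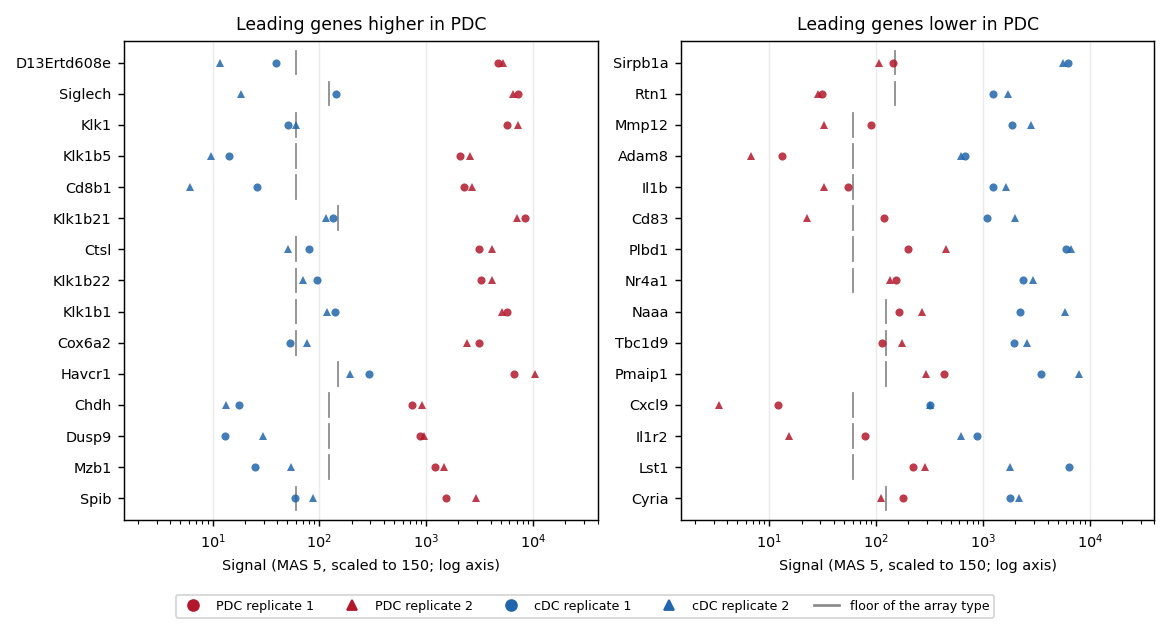
Signals (log axis) of the 15 leading genes higher in PDC (left) and the 15 leading genes lower in PDC (right) in each sample, with PDC in red, cDC in blue, replicate 1 as circles and replicate 2 as triangles; the grey tick is the floor of the array type. The groups are separated in all 30 genes because the rule asked for that, and most dim values lie near or under the floor.

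Other PDC genes from the list differed by less. Bst2, the tethering protein recognised by PDC-specific antibodies, stood at 9569.7 and 6657.3 in PDC and 609.3 and 466.8 in cDC (log2 difference 3.86, SE 0.26, adjusted p = 6.20e-05). Blnk, the B cell linker adaptor, gave 904.2 and 1395.6 in PDC and 45.8 and 34.2 in cDC, at least 18.7-fold higher (log2 difference 4.35, SE 0.41). Lifr, the receptor for leukaemia inhibitory factor, was at least 16.5-fold higher, with 729.8 and 1341.8 in PDC and 31.9 and 42.5 in cDC. All of these held. Lair1, an inhibitory collagen receptor, gave 664.3 and 960.8 against 51.6 and 181.3 (log2 difference 2.82, SE 0.48, adjusted p = 0.0105), and its call ended without PDC replicate 2 (0.0854) or cDC replicate 1 (0.0531). P2ry14, a receptor for UDP-glucose, stood at 2234.8 and 4938.0 against 512.6 and 633.6, and its call ended without PDC replicate 2, cDC replicate 1 or cDC replicate 2 (adjusted p 0.0928, 0.0853 and 0.0589). The 6 measured members of the list without a call were Tspan13, Cd4, Atp1b1, Cd7, Pld4 and Snx30, with log2 differences from -0.03 to 1.14.

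Transcription factors of the PDC programme were split. Of 22 measured genes of the PDC transcription and E protein list, 9 were called higher and 2 lower in PDC (against 2.25% and 2.75% of all genes), and the median log2 difference was 0.91. The count called higher was 4 to 7 without 1 sample. Tcf4 stood at 3220.4 and 4105.6 in PDC and 474.3 and 553.0 in cDC (log2 difference 2.79, SE 0.24, adjusted p = 0.000198). Spib, an Ets factor that acts in PDC and B cells, gave 1525.5 and 2944.3 in PDC and 58.8 and 86.6 in cDC (log2 difference 4.61, SE 0.40, adjusted p = 9.71e-05). These were the 2 factors of the list whose calls held. The second Spib probe set pointed the same way without a call (log2 difference 1.22, adjusted p = 0.222).

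Tcf12, another E protein, gave 525.8 and 1337.7 in PDC and 148.5 and 192.2 in cDC (log2 difference 2.21, SE 0.39, adjusted p = 0.00796), and Tcf3, the remaining E protein, overlapped at 160.0 and 81.3 against 190.5 and 121.2. Irf7, the master regulator of interferon alpha transcription, stood at 18788.4 and 27391.4 in PDC and 6494.2 and 7375.0 in cDC (log2 difference 1.71, SE 0.25, adjusted p = 0.00364). Irf8, a factor both lineages use, gave 8840.9 and 8504.2 in PDC and 3710.3 and 3269.3 in cDC (log2 difference 1.31, SE 0.26, adjusted p = 0.0157). Both were bright in cDC too and differed by less than Tcf4 or Spib. Runx1 and Cbfa2t3, the latter a co-repressor of the ETO family, were called lower in PDC, with log2 differences of -2.13 (SE 0.39) and -1.70 (SE 0.41). The Tcf12 call ended without cDC replicate 1 (adjusted p = 0.0804) and the Irf7 call without PDC replicate 2 (0.0522). The Irf8 call ended in each of the 4 fits (0.0546 to 0.0925), that of Runx1 without PDC replicate 2 or either cDC sample (0.0552 to 0.16), and that of Cbfa2t3 without PDC replicate 1 or either cDC sample (0.141 to 0.266).

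On the cDC side, 9 of 23 measured transcription factors were called lower in PDC and 0 higher, with a median log2 difference of -1.37; 5 to 8 were called without 1 sample. Of all genes 2.75% were called lower. Batf3 gave 112.4 and 59.3 in PDC and 1123.6 and 1099.2 in cDC (log2 difference -3.52, SE 0.32, adjusted p = 0.000152 by limma). Id2 gave 433.2 and 253.1 in PDC and 2575.9 and 2810.2 in cDC (log2 difference -2.96, SE 0.30). Bcl6, a repressor needed by cDC, gave 51.9 and 68.9 against 484.1 and 483.5 (log2 difference -2.72, SE 0.30). These calls held, as did those of Egr2 and Nr4a1. Spi1, which encodes PU.1, the Ets factor of myeloid cells, stood at 147.5 and 167.0 in PDC and 758.8 and 616.5 in cDC (log2 difference -2.02, SE 0.32, adjusted p = 0.00443), with its call ended only without cDC replicate 1 (0.0611). Zbtb46, a cDC-defining factor, was dim, at 30.8 and 10.3 in PDC and 82.6 and 127.2 in cDC, and was not called (adjusted p = 0.0915).

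**Figure D4:**
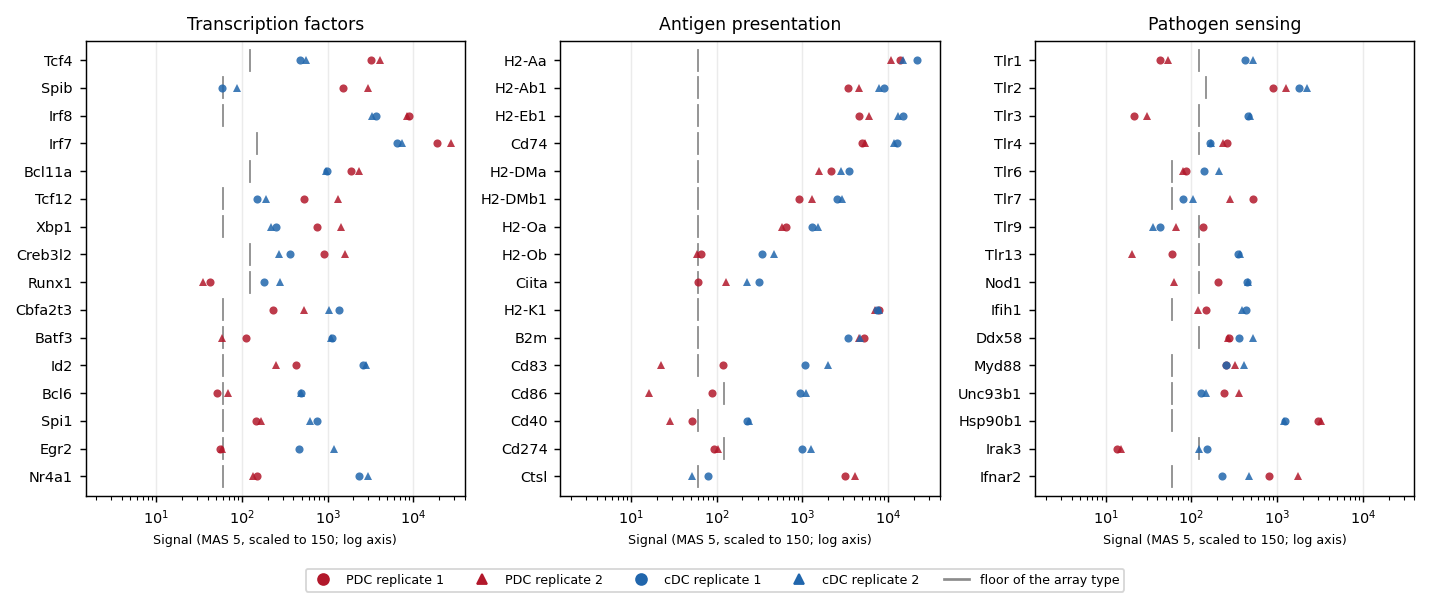
Signals (log axis) of transcription factors, antigen presentation genes and pathogen sensors in each sample, with PDC in red, cDC in blue, replicate 1 as circles, replicate 2 as triangles and the floor of the array type as a grey tick. Tcf4 and Spib lie to the right in PDC, Batf3, Id2, Cd83 and Cd86 to the right in cDC, and H2-K1 and B2m close together in all samples.

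The 3 interferon genes that were tested gave no call, and Ifna1, Ifna2, Ifna4, Ifna6, Ifna7, Ifna11 and Ifnb1 were not among the genes tested. Of 16 measured type I interferon and receptor pathway genes, 2 were called higher in PDC, Irf7 and Ifnar2, and 0 lower. Over all genes 2.25% were called higher and 2.75% lower. The median log2 difference of the list was 0.14. Ifna5, Ifna9 and Ifnab had signals of 40.6 to 189.6 in PDC and 41.1 to 117.7 in cDC and log2 differences of 0.08, 0.06 and -0.45. Ifnar2, a chain of the type I interferon receptor, gave 808.1 and 1753.2 in PDC and 226.7 and 473.5 in cDC (log2 difference 1.81, SE 0.42, adjusted p = 0.0371), with its call ended without PDC replicate 2 (0.207) or cDC replicate 1 (0.277). Among 32 measured interferon-stimulated genes 4 were called higher and 1 lower (against 2.25% and 2.75% of all genes), and the median was 0.25. Isg15, a classic member, overlapped at 167.6 and 152.2 in PDC and 229.1 and 145.3 in cDC. Apart from Bst2, the members called were Ifi47, Trim25 and Oasl2 (higher) and Oas2 (lower), and each of these calls ended without at least 1 sample. Those of Trim25 ended without cDC replicate 2 (0.069), of Ifi47 without PDC replicate 2 or cDC replicate 1 (0.0874 and 0.11), and of Oasl2 without any of the 4 (0.129 to 0.168). The Oas2 call ended without PDC replicate 2 or either cDC sample (0.0865 to 0.182).

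Pathogen sensors were called in both directions. Of 27 measured Toll-like receptors, adaptors and sensors, 2 were called higher and 5 lower in PDC (against 2.25% and 2.75% of all genes), and the median log2 difference was -0.18. Tlr7, the endosomal receptor for single-stranded RNA, gave 528.0 and 279.8 in PDC and 80.5 and 105.4 in cDC (log2 difference 1.89, SE 0.37, adjusted p = 0.0168). Tlr9, the receptor for unmethylated DNA, was dim, at 135.8 and 66.5 in PDC and 42.9 and 35.3 in cDC, and did not pass (log2 difference 1.03, SE 0.50, adjusted p = 0.394). In contrast, Tlr3, the receptor for double-stranded RNA, gave 21.1 and 29.9 in PDC and 455.7 and 483.7 in cDC, at least 3.83-fold lower (log2 difference -3.56, SE 0.53, adjusted p = 0.00517).

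Tlr1, a partner of Tlr2 in sensing lipopeptides, was also at least 3.83-fold lower, with 42.8 and 53.4 in PDC and 423.0 and 522.2 in cDC (adjusted p = 0.00353). Tlr13, a sensor of bacterial ribosomal RNA, was at least 2.93-fold lower, at 58.6 and 20.3 against 346.0 and 372.9 (adjusted p = 0.0125). The cytosolic sensors Ifih1 and Nod1 were lower too, with log2 differences of -1.50 and -1.81. Hsp90b1, the chaperone that folds Toll-like receptors, gave 2980.7 and 3257.3 in PDC and 1248.0 and 1212.1 in cDC (log2 difference 1.33, SE 0.28, adjusted p = 0.0218). Unc93b1, which carries endosomal receptors, was at 240.1 and 362.8 against 128.9 and 146.9 without a call (adjusted p = 0.162), and the shared adaptor Myd88 overlapped at 251.2 and 318.9 against 254.5 and 406.4. None of the 7 calls held. Tlr1 was lost without cDC replicate 2 (0.0668), Tlr3 without either cDC sample (0.0731 and 0.0852), and Tlr7 without PDC replicate 1 or either cDC sample (0.0927, 0.128 and 0.078). Tlr13, Ifih1 and Nod1 were lost without PDC replicate 2 or either cDC sample (0.0538 to 0.244), and Hsp90b1 in every such fit (0.065 to 0.116).

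Receptors for migration and growth factors were also called in both directions. Of 13 measured chemokine and sphingolipid receptors 3 were called higher in PDC (Ccr9, Cxcr3 and S1pr4) and 2 lower (Ccrl2 and Xcr1). Of all genes 2.25% were called higher and 2.75% lower. Ccr9, a homing receptor for gut and thymus, gave 1034.2 and 773.0 in PDC and 83.0 and 112.9 in cDC, at least 7.29-fold higher (log2 difference 3.01, SE 0.33, adjusted p = 0.000845). Cxcr3, which follows interferon-induced chemokines, gave 1116.8 and 1361.8 against 217.9 and 208.5 (log2 difference 2.45, SE 0.27, adjusted p = 0.0004). Both calls held, while S1pr4 was lost without PDC replicate 2 or either cDC sample (0.0927 to 0.166). Xcr1, the receptor of cross-presenting cDC, gave 50.9 and 99.3 in PDC and 298.7 and 239.1 in cDC (adjusted p = 0.0388), and its call ended without PDC replicate 1 or either cDC sample (0.141 to 0.249). That of Ccrl2, an atypical chemerin receptor, ended without either cDC sample (0.06 and 0.0523).

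Among 30 measured cytokine and growth factor receptors, Il7r and Lifr were called higher in PDC and Csf1r, Il1r2, Kit and Tnfrsf1b lower. The shares of all genes were 2.25% higher and 2.75% lower. Il7r, the interleukin 7 receptor of lymphoid precursors, gave 759.0 and 1536.5 in PDC and 91.8 and 114.0 in cDC (log2 difference 3.21, SE 0.35, adjusted p = 0.000415). Csf1r, the macrophage colony-stimulating factor receptor, gave 158.4 and 107.2 in PDC and 1406.0 and 1237.3 in cDC (log2 difference -3.19, SE 0.30, adjusted p = 0.00017). Kit, the stem cell factor receptor, gave 59.9 and 66.4 against 322.1 and 446.6 (log2 difference -2.32, SE 0.30). Of the 6 only the Tnfrsf1b call did not hold, being lost without PDC replicate 2 or either cDC sample (0.0537 to 0.151). The further Csf1r probe set, with signals of 14.5 to 128.0, was not called (log2 difference 0.54, adjusted p = 0.798).

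Some genes of early lymphoid cells were called higher in PDC, against 2.25% of all genes. Of 19 measured early lymphoid genes 5 were called higher, 0 lower, and all 5 held: Dntt, Il7r, Notch1, Ly6d and Mzb1 (median of the list 0.54). Dntt, the template-free DNA polymerase of antigen receptor joining, gave 661.7 and 708.6 in PDC and 110.8 and 102.1 in cDC (log2 difference 2.52, SE 0.28, adjusted p = 0.000445). Rag1, the recombinase that works with it, overlapped at 225.6 and 154.2 against 241.2 and 176.7 (adjusted p = 0.921). Notch1 was at least 9.63-fold higher, at 457.6 and 728.9 against 41.6 and 27.7.

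Of 25 measured B cell and immunoglobulin genes 7 were called higher and 2 lower in PDC (Cd22 and Fcrl1), against 2.25% and 2.75% of all genes. The median was 0.39. Ighm, the immunoglobulin mu heavy chain, gave 6273.3 and 6534.2 in PDC and 937.2 and 1088.5 in cDC (log2 difference 2.65, SE 0.32, adjusted p = 0.000701), and 3 of its 7 further probe sets were called the same way. Igha, the alpha heavy chain, gave 6474.4 and 2614.5 in PDC and 190.1 and 226.6 in cDC (log2 difference 4.21, SE 0.39, adjusted p = 0.000152). Its 2 further probe sets were not called (log2 differences 0.96 and 1.03, adjusted p = 0.168 and 0.257). Fcrla, an Fc receptor-like protein of B cells, gave 1272.4 and 1952.8 against 63.9 and 177.8 (log2 difference 3.68, SE 0.43). Together with Blnk and Spib these calls held. The call of Tnfrsf13b, the receptor TACI, was lost without cDC replicate 1 (0.0731), that of Cd22 without cDC replicate 2 (0.0993) and that of Fcrl1 without either cDC sample (0.0626 and 0.124). Cd79a and Ms4a1, which define B cells, were not called, at 136.4 and 46.6 against 59.4 and 36.6 and at 299.3 and 97.3 against 287.4 and 196.9. Among plasma cell markers Jchain gave 698.0 and 434.3 in PDC and 67.0 and 173.5 in cDC (adjusted p = 0.00974), lost without PDC replicate 1 (0.0662) or cDC replicate 1 (0.0844), and Sdc1 was not called (log2 difference 0.24). In IKDC, Igha stood at 5908.6 and 4204.8 and Ighm at 3093.8 and 1659.1, so high immunoglobulin signals were not confined to PDC. The part of plasma cell RNA was not tested.

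Genes of the secretory pathway gave few calls but mostly positive differences. Of 59 measured genes of secretion and the unfolded protein response 5 were called higher in PDC and 0 lower, 8.47% against 4.99% of all genes, and 49 of 59 had a positive difference against 50% of all genes (median 0.33). Xbp1, the transcription factor of secretory cells, gave 756.6 and 1416.2 in PDC and 251.0 and 216.3 in cDC (log2 difference 2.08, SE 0.33, adjusted p = 0.00446). Creb3l2, a related factor of the endoplasmic reticulum, gave 916.0 and 1594.3 against 363.2 and 272.1 (log2 difference 1.89, SE 0.31, adjusted p = 0.0091). Sec24d, a coat protein of transport vesicles, was at least 4.33-fold higher, and Sec61a1, the translocation channel, had a log2 difference of 1.09 (SE 0.25). Hspa5, the main chaperone of the unfolded protein response, overlapped at 2425.2 and 2006.5 against 2099.7 and 2782.1. None of the 5 calls held: Xbp1 was lost without cDC replicate 2 (0.0549), Sec24d without PDC replicate 2 (0.0701), and Creb3l2 without PDC replicate 2 or either cDC sample (0.0514 to 0.103). The calls of Sec61a1 and Hsp90b1 were lost in every fit without 1 sample (0.085 to 0.182 and 0.065 to 0.116).

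Of the 15 leading genes lower in PDC, Sirpb1a differed by the most. It encodes an activating receptor of the signal regulatory family and gave 143.8 and 105.7 in PDC and 6157.9 and 5622.0 in cDC, at least 39.6-fold lower (log2 difference -5.40, SE 0.46, adjusted p = 0.000142). Il1b, the inflammatory cytokine interleukin 1 beta, gave 54.7 and 32.1 in PDC and 1242.7 and 1619.6 in cDC, at least 23.6-fold lower (log2 difference -4.62, SE 0.34, adjusted p = 3.60e-05). Its decoy receptor Il1r2 gave 77.9 and 15.4 in PDC and 872.8 and 625.4 in cDC (log2 difference -3.80, SE 0.47). The PDC samples lay far below both cDC samples for each.

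Mmp12, macrophage elastase, gave 89.8 and 32.3 in PDC and 1853.8 and 2780.4 in cDC (log2 difference -5.00, SE 0.39, adjusted p = 5.54e-05). Adam8, a metalloprotease of leukocytes, was at least 10.8-fold lower, at 13.1 and 6.8 against 674.3 and 621.0. Rtn1, a reticulon of the endoplasmic reticulum, was at least 9.79-fold lower. Plbd1, a phospholipase-like protein, gave 196.8 and 448.4 against 5952.6 and 6623.7 (log2 difference -4.32, SE 0.35), and Tbc1d9 and Cyria, the latter a regulator of the Rac pathway, had log2 differences of -3.86 and -3.66. Lst1, a leukocyte transcript of the MHC region, varied within cDC, at 6350.7 and 1775.8, but stayed above 221.5 and 284.0 in PDC.

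Of 31 measured genes known from cDC, 14 were called lower in PDC, 1 higher and 16 not (against 2.75% and 2.25% of all genes), with a median log2 difference of -1.63; 8 to 14 were called lower without 1 sample. Itgax, the integrin chain CD11c, gave 238.4 and 338.7 in PDC and 1556.1 and 2614.2 in cDC (log2 difference -2.76, SE 0.31, adjusted p = 0.000515). Wdfy4, which is needed for cross-presentation, gave 601.0 and 694.0 in PDC and 7328.6 and 6080.1 in cDC (log2 difference -3.34, SE 0.23, adjusted p = 6.41e-05). Naaa, an acid amidase, gave 162.8 and 269.2 against 2196.1 and 5825.8 (log2 difference -3.99, SE 0.43). These held. Its second probe set, on U74C, was not called (log2 difference -0.21, adjusted p = 0.895).

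The member called higher in PDC was Cd209a, the DC-SIGN lectin, with 4838.3 and 6040.4 in PDC and 2449.8 and 2104.6 in cDC (log2 difference 1.25, SE 0.26, adjusted p = 0.0265). Its call was lost in all 4 fits without 1 sample (0.0708 to 0.171). Clec10a, another lectin of myeloid cells, was also higher, at 2516.8 and 2802.5 against 808.7 and 671.3 (log2 difference 1.83, SE 0.24, adjusted p = 0.00236), and held. The related lectins Clec4a2 and Cd209b were lower in PDC, at least 2.63-fold and 1.19-fold. The Clec4a2 call was lost without either cDC sample (0.119 and 0.14) and that of Cd209b in every fit without 1 sample (0.0682 to 0.236). Myeloid C-type lectins thus went both ways, with 2 of 11 called higher and 2 lower (against 2.25% and 2.75% of all genes).

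Some genes of MHC class II presentation were lower in PDC. Of 21 measured genes, 6 were called lower and 2 higher, Ctsl and Ctsb (against 2.75% and 2.25% of all genes), and the median was -0.76. Cd74, the invariant chain, gave 4945.2 and 5371.5 in PDC and 12643.6 and 11873.0 in cDC (log2 difference -1.25, SE 0.26, adjusted p = 0.0218). H2-Eb1, a class II beta chain, gave 4578.7 and 5991.0 against 15066.7 and 13173.1 (log2 difference -1.42, SE 0.29, adjusted p = 0.0184). H2-Ob, a chain of the regulator of peptide loading, gave 66.0 and 58.6 against 336.7 and 464.6 (log2 difference -2.40, SE 0.35, adjusted p = 0.00277). The classical chains H2-Aa and H2-Ab1 were not called, at 13847.5 and 10965.5 against 21676.4 and 15005.2 and at 3380.3 and 4549.9 against 8994.9 and 7778.6 (adjusted p = 0.535 and 0.0977). Both lay lower in each PDC sample than in each cDC sample, as did 21.5% of all genes.

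None of the 6 class II calls held, and 0 to 3 members were called lower without 1 sample, 0 of them without cDC replicate 2. H2-Ob was lost without cDC replicate 2 (0.0543), H2-Eb1 without PDC replicate 1 or either cDC sample (0.068 to 0.112) and Cd74 in every such fit (0.0827 to 0.106). Ctsb, a cathepsin, gave 5395.1 and 7554.5 in PDC and 2079.5 and 2630.5 in cDC (log2 difference 1.44, SE 0.28, adjusted p = 0.0149), lost without PDC replicate 2 (0.0976) or cDC replicate 1 (0.111). MHC class I genes showed no call among 16 by limma, and their median was -0.03. Over all genes 4.99% were called, a share at which few calls would fall among 16. H2-K1 had a log2 difference of -0.03 and B2m, the shared light chain, of 0.28.

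Of 19 measured co-stimulation and maturation genes, 7 were called lower in PDC (against 2.75% of all genes), 0 higher and 12 not, with a median of -1.48, and 2 to 7 were called without 1 sample. Cd83, a maturation marker, gave 117.9 and 22.7 in PDC and 1074.8 and 1995.9 in cDC (log2 difference -4.36, SE 0.53, adjusted p = 0.000732). Cd274, which encodes the inhibitory ligand PD-L1, gave 92.2 and 105.0 against 1000.2 and 1272.6, at least 9.19-fold lower (log2 difference -3.32, SE 0.32). Those calls held. Cd86, a ligand of CD28, gave 89.4 and 16.1 against 950.1 and 1115.3, at least 8.39-fold lower (adjusted p = 0.00296), and Cd40, the receptor for T cell help, was at least 3.88-fold lower (adjusted p = 0.00787). Both were lost without either cDC sample (0.0517 and 0.0665 for Cd86, 0.0778 and 0.097 for Cd40). Cd80 was not called (log2 difference -1.05, adjusted p = 0.372).

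Transcripts that respond quickly to stimulation were lower in PDC in part. Of 36 measured immediate early and heat shock genes 11 were called lower and 0 higher (30.6% against 4.99% of all genes), with a median of -1.17, and 3 to 11 were called without 1 sample, fewest without cDC replicate 2. Nr4a1, an orphan nuclear receptor induced by stimulation, gave 152.0 and 133.5 in PDC and 2350.0 and 2935.1 in cDC (log2 difference -4.06, SE 0.29, adjusted p = 2.87e-05). A second Nr4a1 probe set, on U74B, gave 467.3 and 425.1 against 940.2 and 963.8 and was not called (log2 difference -1.07, SE 0.27, adjusted p = 0.0725). Egr1, an early growth response factor, gave 288.6 and 116.4 against 1535.2 and 2382.5 (log2 difference -3.26, SE 0.44, adjusted p = 0.00154), and Egr2 was at least 12.3-fold lower. These 3 held. In IKDC, Nr4a1 stood at 1591.5 and 1039.4, between the other populations.

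Atf3, a stress-induced factor, differed between the PDC samples, at 1094.6 and 144.8, but both lay below 7177.2 and 7789.5 in cDC (log2 difference -4.15, SE 0.72, adjusted p = 0.00787). Ier2, another immediate early gene, likewise gave 1125.4 and 291.9 in PDC and 3773.8 and 4122.1 in cDC (log2 difference -2.74, SE 0.49, adjusted p = 0.00878). Both were lost without either cDC sample (0.0634 and 0.076 for Atf3, 0.0634 and 0.0804 for Ier2). Fos, a partner of Jun in AP-1, was bright in all samples and not called, at 5539.8 and 4772.0 in PDC and 8693.7 and 7605.2 in cDC (adjusted p = 0.28). The heat shock genes Hspa1a and Hspa1b varied between the PDC samples, at 51.6 and 427.3 and at 39.2 and 753.7, and were not called. The other calls lower, of Fosl2, Jun, Junb, Egr3, Ier3 and Zfp36 (log2 differences from -2.60 to -1.47), were each lost without cDC replicate 2 (0.068 to 0.209) and without up to 3 further samples.

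Inflammatory ligands were lower in PDC where called. The counts of chemokines and cytokines called lower stand beside 2.75% of all genes. Of 15 measured chemokines 5 were called lower in PDC (Ccl9, Cxcl1, Cxcl2, Cxcl9 and Cxcl16) and 0 higher, with a median of -0.86. Cxcl9, an interferon gamma-induced chemokine, gave 12.0 and 3.4 in PDC and 316.5 and 317.5 in cDC, at least 5.28-fold lower, and held. The other 4 calls were lost without either cDC sample (0.0908 to 0.276). Of 15 cytokines Il1b and Tnf were called lower, the latter at 281.2 and 119.6 against 694.8 and 467.0 (adjusted p = 0.0496), lost without PDC replicate 2 or either cDC sample (0.116 to 0.31). Among 19 NF-kappaB subunits and feedback regulators only Traf1, a signalling adaptor, was called, with a mean of 69.8 ± 13.8 (SD, n = 2) in PDC and 683.1 and 565.0 in cDC (log2 difference -2.90, SE 0.29, adjusted p = 0.000225). The share called, 5.26%, was near the 4.99% of all genes. The list had a median of -0.70, and 15 of 19 members were negative.

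Of 16 measured Bcl2 family genes 3 were called lower in PDC (against 2.75% of all genes). Pmaip1, which encodes the death-promoting protein Noxa, gave 430.5 and 289.7 in PDC and 3483.8 and 7952.3 in cDC (log2 difference -3.84, SE 0.47, adjusted p = 0.00167). Bmf, also a BH3-only protein, gave 384.2 and 383.4 against 1454.3 and 1431.5 (log2 difference -1.87, SE 0.24). Mcl1, a survival protein that Noxa binds, gave 3820.4 and 4278.3 against 10888.2 and 12388.4 (log2 difference -1.52, SE 0.24, adjusted p = 0.00542). Its call was lost without PDC replicate 1 (0.0576) or cDC replicate 2 (0.0611), and the other 2 held. Bcl2 itself was not called (log2 difference -1.02, adjusted p = 0.196).

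Monocyte and macrophage genes were lower in PDC in 13 of 27 measured cases, with 1 higher (Pltp) and a median of -1.72; 5 to 10 were called lower without 1 sample. Of all genes 2.75% were called lower and 2.25% higher. C1qa, a complement chain made by macrophages, gave 15.9 and 16.3 in PDC and 312.1 and 394.3 in cDC, at least 5.85-fold lower, and held. Adgre1, the F4/80 antigen, was at least 3.88-fold lower, at 16.4 and 9.7 against 194.5 and 278.0, and Vcam1 gave 48.8 and 62.3 against 187.5 and 1301.7. The cDC samples thus differed between themselves for Vcam1. Adgre1 was lost without cDC replicate 1 (0.0504) or cDC replicate 2 (0.103), and Vcam1 without either PDC sample or cDC replicate 2 (0.115 to 0.221). Lyz2, lysozyme, gave 241.6 and 115.6 against 1718.8 and 1520.4 (log2 difference -3.15, SE 0.49), lost only without cDC replicate 1 (0.0531). Besides Csf1r and Mmp12, which held, the other lower calls were C1qc, Adgre4, Spic, Slc40a1, Ms4a6c, Apoe and Sirpa, each lost without at least 1 cDC sample (0.0554 to 0.283). Pltp, phospholipid transfer protein, went the other way, at 2027.7 and 3378.0 in PDC and 533.6 and 351.5 in cDC (log2 difference 2.55, SE 0.32, adjusted p = 0.00106). Whether these transcripts come from cDC or from macrophages in the cDC samples was not tested.

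Of 17 measured erythroid and platelet genes, 6 were called higher in PDC (against 2.25% of all genes), 0 lower and 11 not, with a median of 1.26, and 4 to 6 without 1 sample. Hba-a1, alpha globin, gave 21120.7 and 8068.0 in PDC and 515.8 and 1348.3 in cDC (log2 difference 3.94, SE 0.48, adjusted p = 0.000825). Alas2, the erythroid enzyme of haem synthesis, gave 536.5 and 589.0 against 31.4 and 121.0 (adjusted p = 0.00683), lost without cDC replicate 1 (0.0587). In IKDC, Hba-a1 stood at 12059.9 and 13455.5, and the part of red cell RNA in these values was not tested. Slc4a1 and Gata1, further erythroid genes, were not called, with log2 differences of 0.13 and 0.15. Among pancreas genes 4 of 21 were called higher (against 2.25% of all genes), Klk1 and the digestive enzymes Prss2, Cpb1 and Cela3b. The call of Klk1 alone held. Prss2 gave 397.5 and 218.3 against 11.5 and 88.4 and was lost without PDC replicate 1 (0.123) or cDC replicate 1 (0.118). Cela3b lay under the floor in every PDC and cDC sample, but not in IKDC. Its call was lost in every fit without 1 sample, with log2 differences of 2.02 to 2.08. The pancreas markers summed to 3742 and 3049 in IKDC, above 1737 and 1468 in PDC. Cpb1 was lost without PDC replicate 1 or either cDC sample (0.101 to 0.17).

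T cell genes were called in both directions, while NK cell genes gave few calls. Of 10 measured T cell genes 3 were called higher and 1 lower, and of 24 NK cell genes 2 higher and 0 lower, with medians of 0.56 and 0.13. The T cell share called was 40% and the NK cell share 8.33%, the latter near the 4.99% of all genes. Besides Cd8b1 the T cell genes were Cd28, a co-stimulatory receptor, at 183.0 and 223.2 in PDC and 56.8 and 46.7 in cDC, and Thy1, at 160.3 and 80.4 against 21.2 and 18.7. Icos, called lower, gave 78.9 and 61.7 against 301.4 and 434.2. The Cd28 call was lost without cDC replicate 2 (0.0817), that of Thy1 without PDC replicate 1 or either cDC sample (0.0849 to 0.117), and that of Icos in every such fit (0.0742 to 0.263). Klrd1, the CD94 receptor, gave 778.3 and 876.7 in PDC and 360.0 and 362.4 in cDC (log2 difference 1.16, SE 0.25, adjusted p = 0.028), also lost in every such fit (0.0585 to 0.127). Ctsw, a protease of cytotoxic cells, was at least 1.82-fold higher, lost without cDC replicate 1 (0.0786).

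Actin genes were called lower in PDC more often than higher, beside 2.75% called lower and 2.25% higher over all genes. Of 53 measured actin and motility genes 11 were called lower and 2 higher in PDC, with a median of -0.67 and 43 of 53 negative; 4 to 10 were lower without 1 sample. Lcp2, the adaptor SLP-76, gave 100.3 and 63.9 in PDC and 654.4 and 664.8 in cDC (log2 difference -2.81, SE 0.29, adjusted p = 0.000289). Anxa1, annexin 1, gave 343.8 and 171.6 against 1640.5 and 1893.6 (log2 difference -2.78, SE 0.33), and Myo1g, a haematopoietic myosin, 551.5 and 475.0 against 1715.2 and 1721.5 (log2 difference -1.72, SE 0.22). Those calls and that of S100a4 held, while the other 7 lower calls, Vasp, Lcp1, Rhob, Myo1f, Tpm4, Marcks and Marcksl1, were each lost without cDC replicate 2 (0.0578 to 0.17). Higher in PDC were Rac2, at 5627.9 and 6270.4 against 1494.4 and 1884.1 (log2 difference 1.81, SE 0.27, adjusted p = 0.00284), and Capg, an actin-capping protein, at 459.8 and 457.5 against 64.3 and 61.3 (log2 difference 2.59, SE 0.34). Both held too.

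Of 23 measured Fc receptors, adaptors and paired receptors, Siglech and Blnk were called higher in PDC and Lilr4b, Sirpa, Sirpb1a, Cd300a and Cd22 lower. Over all genes 2.25% were called higher and 2.75% lower. The median of the list was -0.21. Lilr4b, an inhibitory receptor, gave 154.3 and 57.5 in PDC and 717.5 and 684.1 in cDC (log2 difference -2.68, SE 0.46, adjusted p = 0.0074), lost without either cDC sample (0.0724 and 0.0699). Cd300a, also inhibitory, gave 1221.4 and 1122.8 against 3390.4 and 2999.0 (log2 difference -1.43, SE 0.22), lost only without cDC replicate 1 (0.0677). Sirpa, the receptor for CD47, gave 123.0 and 235.6 against 488.3 and 613.3 (adjusted p = 0.0321), lost without PDC replicate 1 or either cDC sample (0.119 to 0.248).

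Actb, beta actin, varied within cDC, at 5479.5 and 1248.7, against 8073.4 and 5358.2 in PDC, and was not called (log2 difference 1.32, SE 0.53, adjusted p = 0.266). The value rests on the cDC samples: without cDC replicate 1 the difference was 2.38 and passed (adjusted p = 0.00886), and without cDC replicate 2 it was 0.26 (0.831). With the replicate number as a block it passed as well (0.0221). Of 23 integrin and adhesion genes 5 were called lower and 0 higher (against 2.75% and 2.25% of all genes), with a median of -0.63. Besides Itgax and Vcam1 these were Itgav, the alpha V chain, Itgb5, one of its beta partners, and Cd81, a tetraspanin, with log2 differences of -1.42, -2.51 and -1.72. Each of the last 3 was lost without either cDC sample (0.0524 to 0.102), and Itgav also without PDC replicate 1 (0.0545).

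Lysosomal hydrolases and the proton pump gave 3 calls higher and 2 lower in 54 measured genes (9.26% against 4.99% of all genes), with a median of 0.20. Besides Ctsl and Ctsb, Npc1, a lysosomal cholesterol transporter, was higher, at 704.9 and 1313.4 against 298.2 and 235.0 (adjusted p = 0.0105). Acp5, tartrate-resistant acid phosphatase, was lower, at 289.1 and 280.8 against 2915.8 and 2272.8 (log2 difference -3.11, SE 0.23, adjusted p = 0.000102), as was Ids, iduronate sulfatase (adjusted p = 0.0289). The Acp5 call held, while Npc1 was lost without PDC replicate 2 or either cDC sample (0.0523 to 0.104) and Ids without PDC replicate 1 or either cDC sample (0.102 to 0.229).

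Ribosomal protein and cell cycle genes gave almost no calls. Over all genes 4.99% were called, a share at which few calls would fall among so few members. Of 71 listed cytosolic ribosomal protein genes 30 were measured, and 0 of these were called by limma, with a median of 0.03. Among 41 cell cycle and DNA replication genes the one call was Ccnd1, cyclin D1, at 219.7 and 200.7 in PDC and 664.8 and 783.5 in cDC (log2 difference -1.71, SE 0.30, adjusted p = 0.00764), lost without cDC replicate 1 (0.0514) or cDC replicate 2 (0.092). Mki67, a proliferation marker, was not called (log2 difference -0.31, adjusted p = 0.798). Neutrophil genes had 0 calls among 9 measured, with a median of -0.33, and 3 were called lower without PDC replicate 1. Of 16 STAT and SOCS genes Pias2 was called higher and Socs2 lower (against 2.25% and 2.75% of all genes). Pias2 was lost without either PDC sample or cDC replicate 1 (0.101 to 0.119) and Socs2 without PDC replicate 2 or either cDC sample (0.0731 to 0.221).

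**Figure D5:**
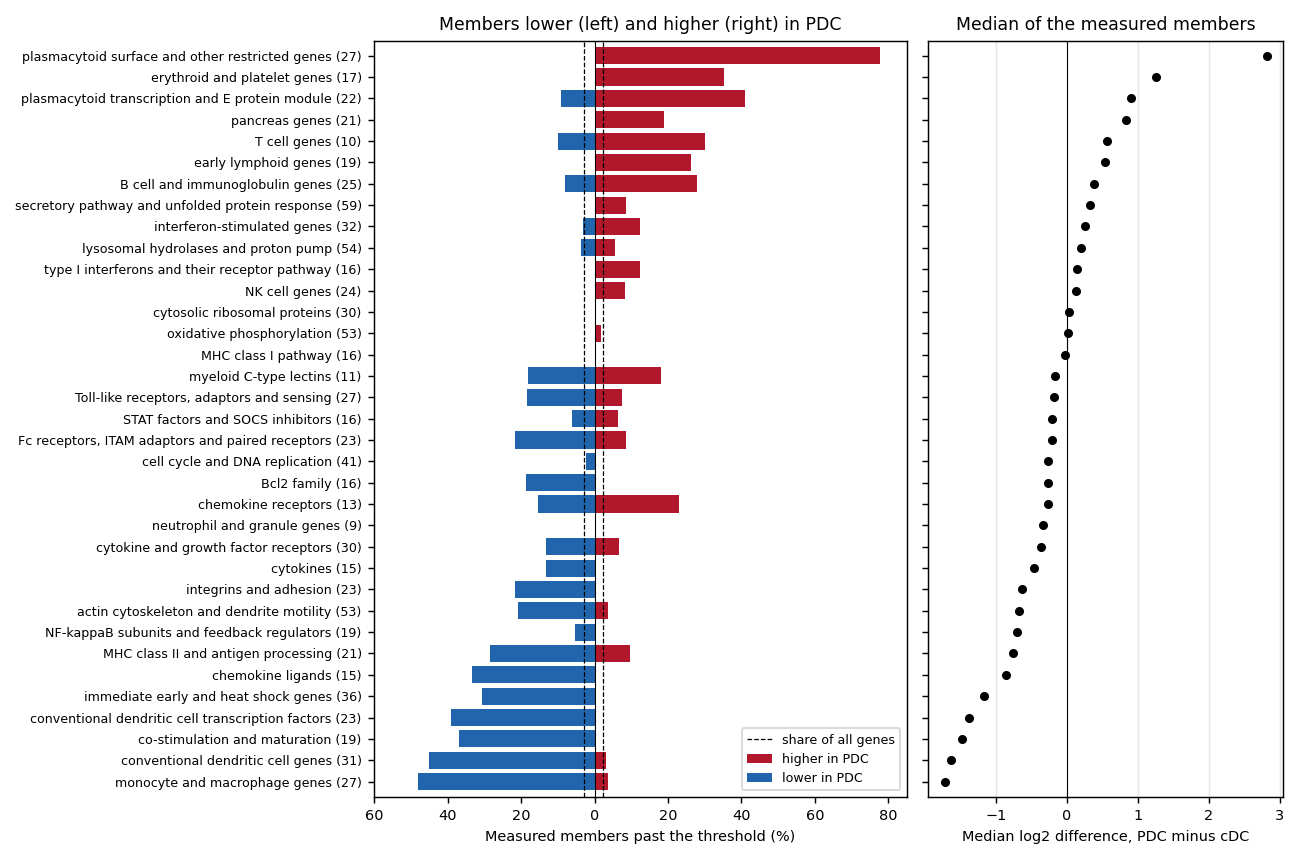
Share of the measured members of 35 gene lists called higher (right, red) or lower (left, blue) in PDC, with dashed lines at the 2.25% and 2.75% of all genes, and the median log2 difference of each list; the number of measured members is in brackets. Medians run from 2.82 for the PDC list to -1.72 for monocyte and macrophage genes, with ribosomal and oxidative phosphorylation genes near 0.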

How the data were processed

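Amplified RNA of the spleen cell populations was hybridised to Affymetrix arrays, per the labels' protocols. The authors deposited signal intensities on a linear scale from GCOS 1.1.1 with default settings and a scaling target of 150, per the labels. MAS5 is the tool in the submitters' processing notes. Scaling gives all arrays of a type a common level, so differences are relative to it, and the small number of arrays limits precision.

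From these, log2(signal + 16) was fitted per array type with limma 3.58.1 in R 4.3.3 (lmFit, eBayes with an intensity trend), all 3 populations in 1 model, and adjusted over the array types together. The fit was tested on simulated data. The tested probe set with the highest mean signal stood for its gene. Names follow GRCm38.p6; of 36701 probe sets 29131 had 1 symbol, 724 several and 6846 none listed. Floors are 60 or, if higher, the top signal among bacterial controls that were not spiked in; a fold bound divides the brighter group's geometric mean by the floor.

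Members, gene lists and tests were chosen with earlier results of these data known. Named genes are the 15 largest differences per direction among genes called in every fit without 1 PDC or cDC sample, free of overlap and with a higher group averaging 200 or more; up to 6 called members of each list by adjusted p, or the 2 brightest; and 8 fixed genes. Other list members named, Klk1b24 and the genes of the closing section were chosen after their values were seen. The main fit did not pair samples by replicate number. Deviations of same-numbered samples correlated at -0.086 to 0.235, the highest being PDC with cDC on U74A. An effect shared by same-numbered samples was modelled only in the alternative with a replicate block. Alternatives covered pseudocount, filter, scaling, trend, adjustment, groups fitted, a replicate block and each sample left out.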

Additional observations from a re-analysis of the deposited data

How the results depend on the processing

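Leaving out a cDC sample moved the total most. In the fits without 1 sample, probe sets called ranged from 327 (without cDC replicate 2) to 678, with 197 to 325 higher and 106 to 377 lower in PDC; fewer samples were tested in these fits, and 349 were called without cDC replicate 1. Of the other 10 alternatives, none moved the 849 calls by over 1.5 times: 582 were called without an intensity trend, 698 without a filter and 936 with a pseudocount of 64. With the replicate number as a block 1055 were called (501 higher, 554 lower). The main fit, with 849, did not use the replicate number. Of 146 genes named by the rule 137 were called, 69 of them under every alternative that tested them, and 0 changed sign with a call. Folds of dim genes are limited by the floors of 60, 122.7 and 148.7.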

Other observations

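Of 162 genes that were called in every fit without 1 sample, did not overlap and reached a mean of 200, 88 were on no gene list, 52 higher and 36 lower in PDC. The genes below were chosen from them after their values were seen. Further probe sets were not called the same way for Sema4b (2), Fyn (1), Gne (1) and Dnase1l3 (3). Fads2 had 1 of 2 called the same way and Prkca 1 of 1. Sema4b, a semaphorin, gave 5448.9 and 5734.1 in PDC and 212.5 and 262.5 in cDC (log2 difference 4.47, SE 0.29, adjusted p = 1.21e-05 by limma). Fads2, a fatty acid desaturase, gave 1552.6 and 2290.0 against 97.9 and 182.1. Cmah, which makes the glycolyl form of sialic acid, gave 2475.8 and 3539.2 against 214.3 and 135.3, and Gne, the first enzyme of sialic acid synthesis, 733.2 and 943.8 against 196.1 and 217.4. Fyn, a Src family kinase, gave 1335.7 and 2558.1 against 203.8 and 240.7, and Prkca, a protein kinase C, was at least 5.68-fold higher. Hvcn1, a voltage-gated proton channel, gave 2395.1 and 2736.2 against 403.6 and 533.1 (log2 difference 2.42, SE 0.24).

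Lower in PDC was Dnase1l3, a secreted nuclease, which gave 12067.6 and 13391.2 in PDC and 84273.3 and 76554.3 in cDC (log2 difference -2.66, SE 0.21, adjusted p = 9.34e-05), so it was bright in both populations. Grk3, a kinase of G protein-coupled receptors, gave 700.9 and 756.3 against 5992.0 and 11764.1 (log2 difference -3.50, SE 0.32). Tmem176a and Tmem176b, a neighbouring pair of membrane protein genes, fell by 3.14 and 2.28 on the log2 scale. Ifitm3 and Ifitm6, of a family of interferon-induced membrane proteins, were also lower, with log2 differences of -2.66 and -2.73, although most interferon-stimulated genes gave no call.

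Tsc22d1 was the gene whose probe sets were called in opposite directions. Its U74A probe set gave 530.5 and 842.1 in PDC and 62.9 and 124.6 in cDC (log2 difference 2.70, SE 0.36, adjusted p = 0.00132), while one on U74C gave 38.9 and 35.7 in PDC and 292.0 and 262.1 in cDC (log2 difference -2.46, SE 0.47, adjusted p = 0.0165).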
